A study of Mus musculus with 5 samples.

Results

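The 50 genes described here encode the machinery of mitosis: the kinase CDK1 with its cyclins, the Polo and Aurora kinases, the spindle checkpoint, kinetochore, condensin, spindle motors and the proteins that divide the cell, with 2 transcription factors that drive these genes. They were listed by symbol for their known roles, and all 50 were among the 11352 genes listed in the deposited table. RNA had been sequenced from mouse haematopoietic stem and progenitor cells, sorted as negative for lineage markers and CD135 and positive for KIT and SCA1. There were 2 libraries from Cux1-low mice, in which the transcription factor gene Cux1 is knocked down. The other 3 libraries came from mice of genotype Cux1-knockdown;NrasG12D, which carry the same knockdown and in addition an activated allele of the small GTPase gene Nras, and are called the NrasG12D libraries here. Both groups had been given pI:C, an interferon-inducing double-stranded RNA, and doxycycline for 4 weeks, so neither group has normal Cux1 or is untreated. The design asks what NrasG12D adds to cells that already have little Cux1. The age and strain of the mice, the elements that drive the knockdown and the Nras allele, and whether each library came from its own animal are not given in the sources used here. The p-values therefore measure the spread between these libraries, part of which may be technical.

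Transcripts of mitotic genes accumulate in the G2 phase and in mitosis and are low in resting cells, so in a mixed population their level follows the share of cells in these phases. Stem cells of adult marrow are mostly quiescent, and their multipotent progeny divide often. Many mitotic promoters are held silent in resting cells by the DREAM complex and are switched on later in the cycle by B-MYB (gene Mybl2) and FOXM1. The DREAM complex and its activating forms bind the cell cycle homology region, whose usual letters are TTTGAA, and the factor NF-Y binds CCAAT boxes nearby. In bulk RNA, fewer cells of a type and less RNA per cell cannot be told apart.

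The promoters show what the members share at the level of sequence. Of the 50, 41 matched a RefSeq promoter on GRCm38.p6, taken as the 250 bases before and the 50 bases from the annotated start. TTTGAA, searched on both strands, occurred in 30 of these 41 genes (73.2%), against 14.0% of the 8724 listed genes with such a window and 20.2% of all 27025 genes in the RefSeq table. It also occurred in 4 of 26 replication and S phase genes (15.4%). CCAAT, on both strands, occurred in 31 of the 41 members (75.6%), against 43.2% of the listed genes and 16 of 26 replication and S phase genes (61.5%). Both were found in 27 members (65.9%), against 5.73% of listed genes and 3 of the 26 replication and S phase genes (11.5%). The variant TTCGAA occurred in 4 members (9.76%), against 2.56% of listed genes and 2 of the 26 (7.69%). In 26 members TTTGAA lay within 50 bases before or after the annotated start, and 7 members held it more than once. A match is a run of letters and does not show binding. Of the 44 promoters of these members, 21 had their start at the start of the annotated gene. Windows that lie inside the gene as GENCODE places it include those of Kif2c, Cdca8, Kif4 and Pttg1, and a further window of Bub3. A motif missing from a window may thus lie in another promoter of the gene.

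Windows of 150 bases, from 130 before to 20 after the annotated start, are given on the strand of the gene, with TTTGAA and CCAAT on either strand in capitals (TTCAAA and ATTGG are their reverse complements). The first 5 genes hold TTTGAA and had middle to high fold changes, Prc1 and Kif23 hold it and had the lowest fold changes of all members, and Mybl2 and Pttg1 hold neither motif and had high ones. The Pttg1 window lies inside the gene as GENCODE places it (43420250 to 43426251), so it may not be the main promoter. The windows are Mki67 at chr7:135716360-135716509 (minus strand), Cdk1 at chr10:69352893-69353042 (minus), Ccnb2 at chr9:70421535-70421684 (minus), Cdc20 at chr4:118437324-118437473 (minus), Ube2c at chr2:164769799-164769948 (plus), Prc1 at chr7:80294321-80294470 (plus), Kif23 at chr9:61946780-61946929 (minus), Mybl2 at chr2:163054505-163054654 (plus) and Pttg1 at chr11:43425962-43426111 (minus).
Mki67: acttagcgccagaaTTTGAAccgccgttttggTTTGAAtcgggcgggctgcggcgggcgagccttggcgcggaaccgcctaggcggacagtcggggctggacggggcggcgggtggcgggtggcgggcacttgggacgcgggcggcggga
Cdk1: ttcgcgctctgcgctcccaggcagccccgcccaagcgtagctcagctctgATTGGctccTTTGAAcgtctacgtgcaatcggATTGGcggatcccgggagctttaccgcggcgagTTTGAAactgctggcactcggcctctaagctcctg
Ccnb2: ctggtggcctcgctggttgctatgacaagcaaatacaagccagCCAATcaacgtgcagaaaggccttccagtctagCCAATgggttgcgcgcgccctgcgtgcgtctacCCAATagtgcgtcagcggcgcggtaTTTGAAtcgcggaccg
Cdc20: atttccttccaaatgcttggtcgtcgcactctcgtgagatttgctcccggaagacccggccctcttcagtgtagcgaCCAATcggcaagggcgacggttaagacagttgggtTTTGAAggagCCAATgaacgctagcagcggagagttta
Ube2c: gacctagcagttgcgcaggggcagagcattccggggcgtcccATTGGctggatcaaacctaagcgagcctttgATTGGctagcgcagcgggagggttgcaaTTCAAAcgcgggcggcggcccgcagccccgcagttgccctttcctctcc
Prc1: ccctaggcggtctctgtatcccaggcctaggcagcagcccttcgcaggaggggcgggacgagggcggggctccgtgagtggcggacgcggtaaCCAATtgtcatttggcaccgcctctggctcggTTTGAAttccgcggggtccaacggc
Kif23: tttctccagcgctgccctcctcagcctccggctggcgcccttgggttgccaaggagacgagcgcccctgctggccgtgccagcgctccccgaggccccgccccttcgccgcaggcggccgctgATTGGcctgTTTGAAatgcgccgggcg
Mybl2: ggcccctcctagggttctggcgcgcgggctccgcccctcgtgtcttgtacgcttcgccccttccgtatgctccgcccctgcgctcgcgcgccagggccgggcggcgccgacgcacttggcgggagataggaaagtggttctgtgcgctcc
Pttg1: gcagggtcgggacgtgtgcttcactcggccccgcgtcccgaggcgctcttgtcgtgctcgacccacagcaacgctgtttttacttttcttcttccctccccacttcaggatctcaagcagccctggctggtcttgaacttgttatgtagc

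In Ccnb2, 3 CCAAT boxes and then TTTGAA follow one another, the last of these just after the start. Cdk1 holds TTTGAA at 2 places, with the first base 71 and 15 bases before the start, each downstream of a CCAAT box on the other strand, and Mki67 holds it at 116 and 98 bases before the start. The fold changes of members with and without TTTGAA overlapped. The median log2 fold change, NrasG12D over Cux1-low, was 0.39 over the 30 members with TTTGAA (0.16 to 0.80) and 0.43 over the 11 without (0.22 to 0.94). With the variant TTCGAA counted as well, the 32 members that held either form had a median of 0.38 (0.16 to 0.80). The matched members with neither form had a median of 0.48 (0.38 to 0.94). These differences were not tested.

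The deposited values are normalized CPM, read counts scaled for the size of each library. Over the listed genes, the libraries held an inferred 16489711 to 20262498 reads, and all 10 pairs of libraries differed by more than sampling noise. Read numbers were inferred from the steps between deposited values, which few low values were there to check. On these inferred numbers, each member had 619 to 12013 reads in every library, for which counting alone gives an error of 0.912% to 4.02%. NrasG12D library 3 stood apart from NrasG12D libraries 1 and 2, so counts of calls, and the fold changes of the members whose values are given in every library, are shown with and without it. By chi-square per degree of freedom, library 3 differed less from the Cux1-low libraries (35.0 and 35.3) than from NrasG12D libraries 1 and 2 (49.6 and 63.8). For 38.6% of all genes, its value lay between those of the Cux1-low libraries and NrasG12D libraries 1 and 2, in either direction. Kit, a gene of the sort, measured 1359 and 1373 normalized CPM with the Cux1 knockdown alone, and 477, 569 and 816 with NrasG12D added. Ly6a, which encodes SCA1, was at 44.7 and 48.7 against 24.2, 14.2 and 37.7, and Flt3, which encodes CD135, at 326 and 388 against 196, 165 and 230. The mRNA of both positive gate markers, and that of the negative one, was thus present in every library. Each was lower with NrasG12D, with log2 fold changes of -1.17 (Kit), -0.96 (Ly6a) and -0.86 (Flt3). None passed with all libraries (adjusted p = 0.0538, 0.129 and 0.0538 in limma). Without library 3 all 3 fell, as did 19.4% of all genes.

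All 50 mitosis and spindle genes had a higher mean in the NrasG12D libraries, by 1.12-fold (Kif23) to 2.002-fold (Pttg1), with a median of 1.36-fold. None passed the test over all genes. In limma on log2(normalized CPM + 1), with p-values adjusted over 11352 genes and a threshold of 0.05, 0 of 50 rose and 0 fell, where 0.255% of all genes rose and 0.872% fell. The smallest adjusted p among the members was 0.0692 (Mki67) and the largest 0.463 (Prc1). At an unadjusted p under 0.05, 31 of 50 were higher, where 14.8% of all genes were. The median log2 fold change was 0.42 over the members and -0.003 over all genes, and 49.7% of all genes had a positive sign. The 95% interval of the log2 fold change lay above 0 for the same number of members, 31. In the authors' deposited table, 17 of the 50 had an adjusted p under 0.05 with a higher level, where 6.97% of all genes did. That table came from the authors' own model of the same 5 libraries.

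NrasG12D library 3 stood apart within its group. In all 50 members its value lay below both NrasG12D library 1 and library 2, as it did for 39.0% of all genes. In all 50 those libraries lay above both Cux1-low libraries, as they did for 36.5% of all genes, and both held for 29.3% of all genes. Library 3 was above both Cux1-low libraries for 44 members, which were thus the members whose groups did not overlap (88%, where 26.5% of all genes had every NrasG12D library above every Cux1-low library). It lay within the Cux1-low range for Plk1, Kif4 and Kif23 and below it for Bub1, Prc1 and Racgap1. On the log2 scale, the median member was 0.49 above the Cux1-low mean in library 1, 0.63 in library 2 and 0.14 in library 3. Between the Cux1-low libraries the median member differed by 0.06, and between NrasG12D libraries 1 and 2 by 0.16. The range over all 3 NrasG12D libraries had a median of 0.53, but a range over 3 libraries tends to exceed a difference between 2. Library 3 was singled out from these same data. As it was the lowest NrasG12D library for all 50 members, leaving it out raises each of their fold changes by construction. The counts and p-values without it, here and below, are thus descriptive and do not serve as support. Without library 3, 45 of 50 members rose and 0 fell, against a background of 18.0% of genes with a rise and 19.4% with a fall. The members then had a median log2 fold change of 0.55. The 5 that did not pass then were Cdc25b, Ncapg, Kif23, Prc1 and Ect2. A fit with the replicate number as a block gave 45 as well (where 16.7% of all genes rose). In that fit library 3, the only one of its number, adds nothing to the fold change.

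**Figure D1:**
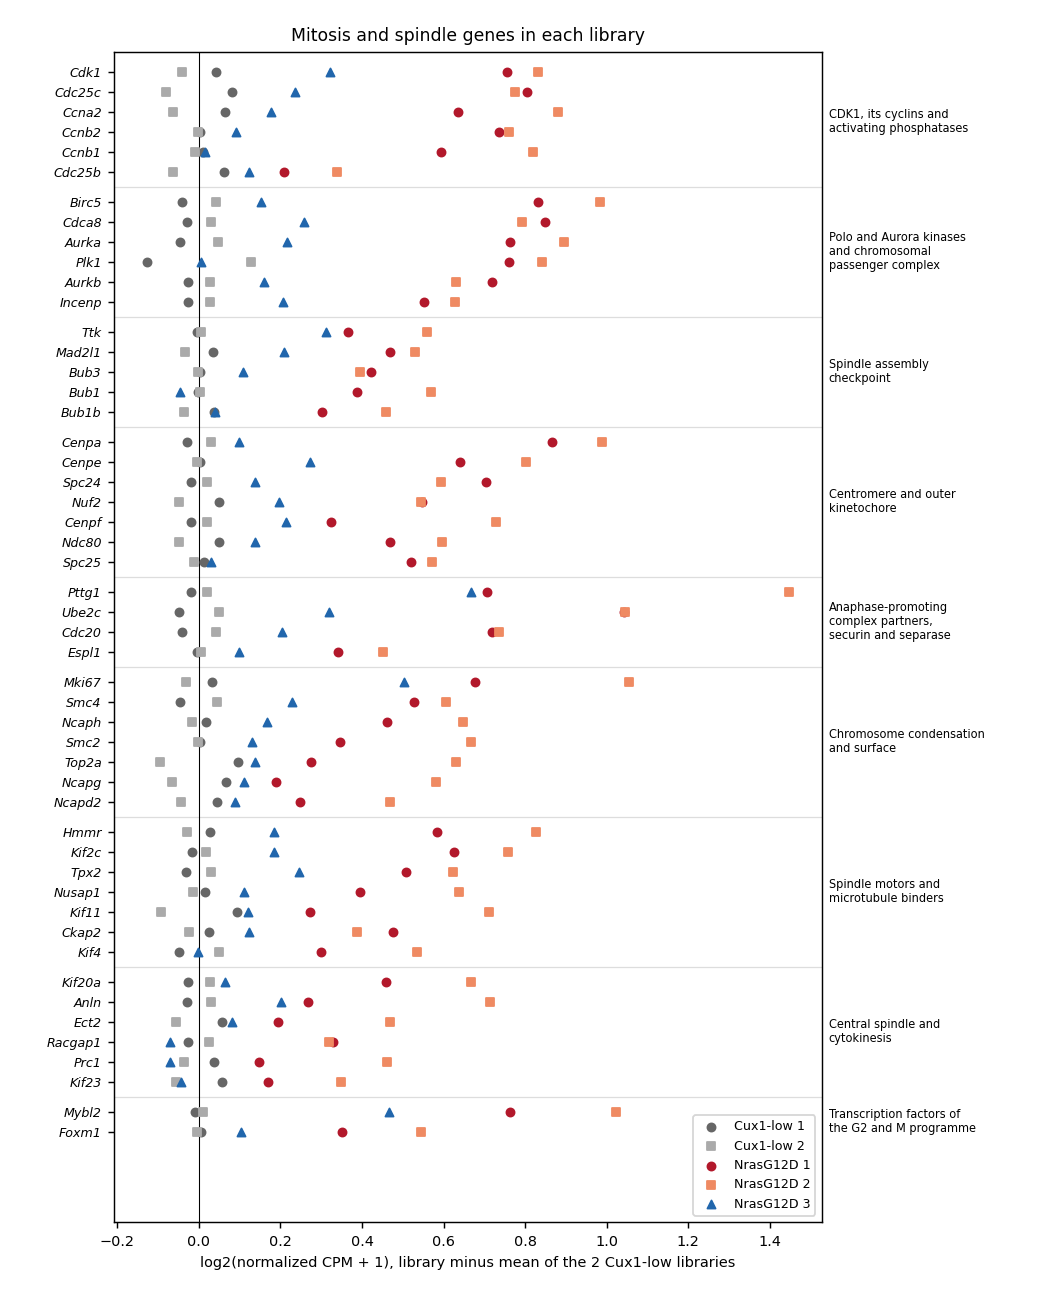
Log2(normalized CPM + 1) of each of the 50 genes in each library, relative to the mean of the 2 Cux1-low libraries (x axis, log2 units), with genes in rows grouped by role and 1 marker per library. NrasG12D libraries 1 and 2 lie to the right of both Cux1-low libraries in all 50 rows, and library 3 lies between them in 44.

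Markers of cell types moved with the same libraries. Of 15 measured markers of haematopoietic stem cells, 14 had a negative sign and 2 fell (median log2 fold change -1.51), and their summed level was 2086 to 2139 normalized CPM in the Cux1-low and 706 to 1514 in the NrasG12D libraries, highest in library 3. All 12 measured erythroid genes had a positive sign (median 0.87), with sums of 4993 to 5425 against 6146 to 12191, lowest in library 3. All 9 measured genes of B cell precursors had a positive sign (median 2.37), with sums of 61.5 to 85.3 against 64.8 to 572, and library 3 at the bottom of that range. Cd79b made up most of the Cux1-low sums (48.1 and 51.4), and Igll1 was near the floor there (2.21 and 6.55). Listed genes exceeded 1 in at least 3 libraries, so a gene near the floor in Cux1-low was listed only if higher with NrasG12D. The shared sign, medians and calls of these B cell genes may in part be set by that and do not serve as support. Granulocyte and monocyte genes had 7 of 8 positive signs and sums of 7742 to 10862 against 8387 to 19784, megakaryocyte genes 9 of 9 negative signs and sums of 1285 to 1315 against 560 to 1129, and T and NK cell genes sums of 31.8 to 41.3 against 29.3 to 40.0. No measured marker of these lists was at 0. The globin genes Hba-a1, Hba-a2, Hbb-bs and Hbb-bt, the B cell gene Pax5, the neutrophil genes S100a8 and S100a9 and the T cell genes Cd3d, Cd3e and Cd3g were not in the table. Without NrasG12D library 3 more of these markers passed, in a fit where 18.0% of all genes rose and 19.4% fell. Then 13 of 15 stem cell markers fell (median -1.87), 11 of 12 erythroid genes rose (median 1.15) and 9 of 9 genes of B cell precursors rose (median 3.40), where 0 erythroid and 0 B cell genes passed with all libraries. In the same fit, 5 of 8 granulocyte and monocyte genes rose, 5 of 9 megakaryocyte genes fell and 0 of 2 T and NK cell genes passed. The part of these marker differences in the levels of the mitotic genes was not tested.

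The genes that start mitosis were among those with the larger differences. CDK1 is the kinase that drives cells into mitosis, cyclin A2 and the B cyclins activate it, and the CDC25 phosphatases remove its inhibitory phosphates. Cdk1 (chromosome 10, 69335146 to 69352938 on mm10) measured 175 and 165 normalized CPM with the Cux1 knockdown alone, and 287, 303 and 212 with NrasG12D added. All 3 NrasG12D values were above both others, with library 3 the lowest of them. The log2 fold change was 0.64 (standard error 0.16, 95% interval 0.25 to 1.02, adjusted p = 0.0791 in limma), and 0.79 without library 3 (adjusted p = 0.00238 in limma). Cdc25c was the least abundant of these genes in CPM, at 33.7 and 29.99 against 56.3, 55.1 and 37.6. Its groups did not overlap and differed by 0.61 on the log2 scale (standard error 0.20, adjusted p = 0.105 in limma). Leaving out library 3 gave 0.79 for Cdc25c (adjusted p = 0.00505 in limma). Cdc25b, its paralogue, was at 72.0 and 65.9 against 79.8, 87.5 and 75.1, so that library 3 was only a little above the higher Cux1-low library. Its log2 fold change of 0.22 (95% interval -0.06 to 0.50, adjusted p = 0.234 in limma) was the smallest of the group, and it did not pass without library 3 either (adjusted p = 0.0914 in limma). Ccna2, Ccnb1 and Ccnb2 had ratios of group means of 1.51, 1.44 and 1.48. Ccnb1 in library 3 was at 55.3, next to 55.1 and 54.3 in the Cux1-low libraries, while libraries 1 and 2 were at 83.0 and 97.3.

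Polo-like kinase 1 and the Aurora kinases build the spindle and correct its attachments. Aurora B acts within the chromosomal passenger complex together with INCENP, survivin (Birc5) and borealin (Cdca8). Cdca8 measured 203 and 212 normalized CPM with the Cux1 knockdown alone, and 374, 359 and 248 with NrasG12D added. The groups did not overlap, and the log2 difference came to 0.63 (standard error 0.18, adjusted p = 0.0894 in limma). Incenp was at 220 and 228 against 328, 346 and 258, which gave a log2 difference of 0.46 (standard error 0.14, adjusted p = 0.0967 in limma). Plk1 was the one member of this group whose groups overlapped. It was at 109.5 and 131 against 204, 216 and 120, and library 3 lay between the Cux1-low libraries, which themselves differed by 0.26 on the log2 scale, the widest gap of any member. Its groups differed by 0.54 on the log2 scale (95% interval -0.06 to 1.13, adjusted p = 0.195 in limma), and 0.80 without library 3 (adjusted p = 0.00407 in limma). Birc5, Aurka and Aurkb had log2 fold changes of 0.66, 0.63 and 0.50. Without library 3 the log2 fold change was 0.82 for Cdca8 and 0.59 for Incenp (adjusted p = 0.00205 and 0.00456 in limma). All 6 genes of this group rose in the fit without library 3, where 18.0% of all genes did.

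The spindle assembly checkpoint holds anaphase back until every chromosome is attached, through the kinases TTK (MPS1) and BUB1, the pseudokinase BUBR1 (Bub1b), BUB3 and MAD2 (Mad2l1). Its 5 genes had smaller differences, with log2 fold changes of 0.27 to 0.41. Ttk measured 58.0 and 58.5 normalized CPM with the Cux1 knockdown alone, and 75.3, 86.2 and 72.5 with NrasG12D added. Here library 3 lay close to library 1, and the log2 difference came to 0.41 (standard error 0.12, adjusted p = 0.0894 in limma). Mad2l1 was at 114 and 108.5 against 154, 161 and 129, which gave a log2 difference of 0.40 (standard error 0.13, adjusted p = 0.0984 in limma). Bub1 was at 55.5 and 55.6 against 73.0, 82.9 and 53.8. Its library 3 value was below both Cux1-low values, and the log2 difference came to 0.30 (95% interval -0.14 to 0.75, adjusted p = 0.297 in limma). Bub3 and Bub1b had log2 fold changes of 0.31 and 0.27. With library 3 left out, the values were 0.46 for Ttk, 0.50 for Mad2l1 and 0.48 for Bub1 (adjusted p = 0.021, 0.00837 and 0.0186 in limma).

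Kinetochores form on centromeric chromatin marked by the histone variant CENP-A, and the NDC80 complex (NDC80, NUF2, SPC24 and SPC25) grips the microtubules. All 7 genes of this group had groups that did not overlap. Cenpe, a kinesin that carries chromosomes to the spindle equator, measured 88.4 and 88.0 normalized CPM with the Cux1 knockdown alone, and 138, 155 and 107 with NrasG12D added. Its groups differed by 0.57 on the log2 scale (standard error 0.16, adjusted p = 0.0875 in limma). Nuf2 was at 89.4 and 83.5 against 127, 126 and 99.1, which gave a log2 difference of 0.43 (standard error 0.14, adjusted p = 0.103 in limma). Spc25 was at 76.9 and 75.7 against 109.8, 114 and 77.9. Library 3 exceeded the higher Cux1-low library by about 1 normalized CPM, and the log2 difference came to 0.37 (95% interval -0.05 to 0.79, adjusted p = 0.196 in limma). Cenpa had the largest fold change of the group (0.65), Spc24 0.48, Cenpf 0.42 and Ndc80 0.40. The fit without library 3 gave 0.72 for Cenpe, 0.55 for Nuf2 and 0.55 for Spc25 (adjusted p = 0.00395, 0.0073 and 0.00725 in limma).

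Anaphase starts when the anaphase-promoting complex, with its activator CDC20 and the ubiquitin-conjugating enzyme UBE2C, destroys securin (Pttg1) and so frees separase (Espl1). This group held the 2 members with the largest fold changes. Pttg1 (chromosome 11, 43420250 to 43426251) measured 50.5 and 52.0 normalized CPM with the Cux1 knockdown alone, and 84.3, 142 and 82.0 with NrasG12D added. Library 2 was far above the other NrasG12D libraries, and library 3 was close to library 1, unlike in most members. The log2 fold change was 0.94 (standard error 0.24, 95% interval 0.37 to 1.51, adjusted p = 0.0781 in limma). Ube2c was at 137 and 147 against 293, 294 and 177. Libraries 1 and 2 were almost equal there, and the log2 difference came to 0.80 (standard error 0.23, adjusted p = 0.0858 in limma). Espl1 was at 136 and 137 against 173, 187 and 146, which gave a log2 difference of 0.30 (95% interval -0.01 to 0.60, adjusted p = 0.165 in limma). Cdc20 had a ratio of group means of 1.49. Log2 fold changes without library 3 were 1.08 for Pttg1, 1.04 for Ube2c and 0.40 for Espl1 (adjusted p = 0.0123, 0.00124 and 0.0179 in limma).

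Mitotic chromosomes are shaped by topoisomerase II alpha and by condensin I, made of SMC2, SMC4, NCAPD2, NCAPG and NCAPH, and are coated by Ki-67 (Mki67), which serves as a marker of proliferating cells. Mki67 (chromosome 7, 135689784 to 135716361) measured 259 and 247 normalized CPM with the Cux1 knockdown alone, and 405, 527 and 359 with NrasG12D added. Library 3 was nearer to library 1 than to the Cux1-low libraries. Its log2 fold change of 0.75 (standard error 0.17, 95% interval 0.35 to 1.14) had the smallest limma adjusted p of the members, 0.0692. Smc4 was at 264 and 281 against 393, 415 and 319, which gave a log2 difference of 0.45 (standard error 0.14, adjusted p = 0.0915 in limma). Ncapg was at 116 and 105.8 against 126, 166 and 119.7. Only library 2 was well above the Cux1-low libraries, and the log2 difference came to 0.29 (95% interval -0.08 to 0.67, adjusted p = 0.243 in limma). The remaining genes, Ncaph, Smc2, Top2a and Ncapd2, had log2 fold changes of 0.43, 0.38, 0.35 and 0.27. When library 3 was left out, the log2 fold changes were 0.87 for Mki67, 0.57 for Smc4 and 0.38 for Ncapg (adjusted p = 0.00505, 0.00534 and 0.0756 in limma). All 7 groups of values were free of overlap.

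Spindle motors and microtubule-binding proteins include KIF11, which pushes the poles apart, KIF2C, which depolymerizes microtubules at kinetochores, KIF4, which acts on chromosome arms and the midzone, and TPX2, which activates Aurora A. Tpx2 measured 191 and 199.6 normalized CPM with the Cux1 knockdown alone, and 278, 301 and 232 with NrasG12D added. The groups did not overlap, and the log2 difference came to 0.46 (standard error 0.13, adjusted p = 0.0876 in limma). Kif2c was at 112 and 115 against 176, 193 and 129, which gave a log2 difference of 0.52 (standard error 0.17, adjusted p = 0.108 in limma). Kif4 was at 96.1 and 103 against 123, 145 and 99.3. Library 3 lay between the Cux1-low libraries, and the log2 difference came to 0.28 (95% interval -0.11 to 0.67, adjusted p = 0.279 in limma). Hmmr, Nusap1, Kif11 and Ckap2 had log2 fold changes of 0.53, 0.38, 0.37 and 0.33. All 7 genes of the group rose without library 3, where 18.0% of all genes did. The log2 fold changes were then 0.57 for Tpx2, 0.69 for Kif2c and 0.42 for Kif4 (adjusted p = 0.00577, 0.00382 and 0.0296 in limma).

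The genes of the central spindle and cytokinesis had the smallest differences of the 9 groups. PRC1 bundles the midzone, KIF23 and RACGAP1 form centralspindlin, ECT2 activates RhoA, and anillin (Anln) scaffolds the contractile ring. The median log2 fold change of the 6 genes was 0.22, and the median member of the group stood 0.01 above the Cux1-low mean in library 3. Kif20a measured 164 and 170 normalized CPM with the Cux1 knockdown alone, and 229.98, 266 and 174 with NrasG12D added. Library 3 was barely above the Cux1-low values, and the log2 difference came to 0.40 (95% interval -0.02 to 0.82, adjusted p = 0.175 in limma). Anln was at 86.2 and 89.9 against 106, 145 and 101, which gave a log2 difference of 0.39 (standard error 0.17, adjusted p = 0.163 in limma). Prc1 was at 188 and 179 against 203, 253 and 175. Its library 3 value was the lowest of the 5, and the log2 difference came to 0.18 (95% interval -0.20 to 0.56, adjusted p = 0.463 in limma). Ect2, Racgap1 and Kif23 had log2 fold changes of 0.25, 0.19 and 0.16. Without library 3, Kif20a, Anln and Racgap1 rose and the other 3 did not pass. The fold changes in that fit, as log2, were 0.56 for Kif20a, 0.49 for Anln and 0.30 for Prc1 (adjusted p = 0.00823, 0.0449 and 0.092 in limma). Whether this group differed from the other groups of members was not tested.

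The transcription factors that activate the programme were unequal in fold change. Mybl2 (chromosome 2, 163054687 to 163084688), which encodes B-MYB, measured 62.6 and 63.5 normalized CPM with the Cux1 knockdown alone, and 108, 129 and 87.5 with NrasG12D added. The NrasG12D values were all above the Cux1-low values, with library 3 about midway between the Cux1-low libraries and NrasG12D library 1, and the log2 difference came to 0.75 (standard error 0.17, 95% interval 0.35 to 1.15, adjusted p = 0.0694 in limma). Foxm1 was at 91.3 and 90.8 against 116, 133 and 97.9, which gave a log2 difference of 0.33 (standard error 0.14, 95% interval -0.01 to 0.68, adjusted p = 0.168 in limma). Without library 3 the log2 fold changes were 0.89 and 0.45 (adjusted p = 0.00342 and 0.019 in limma). The difference between both genes was not tested.

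**Figure D2:**
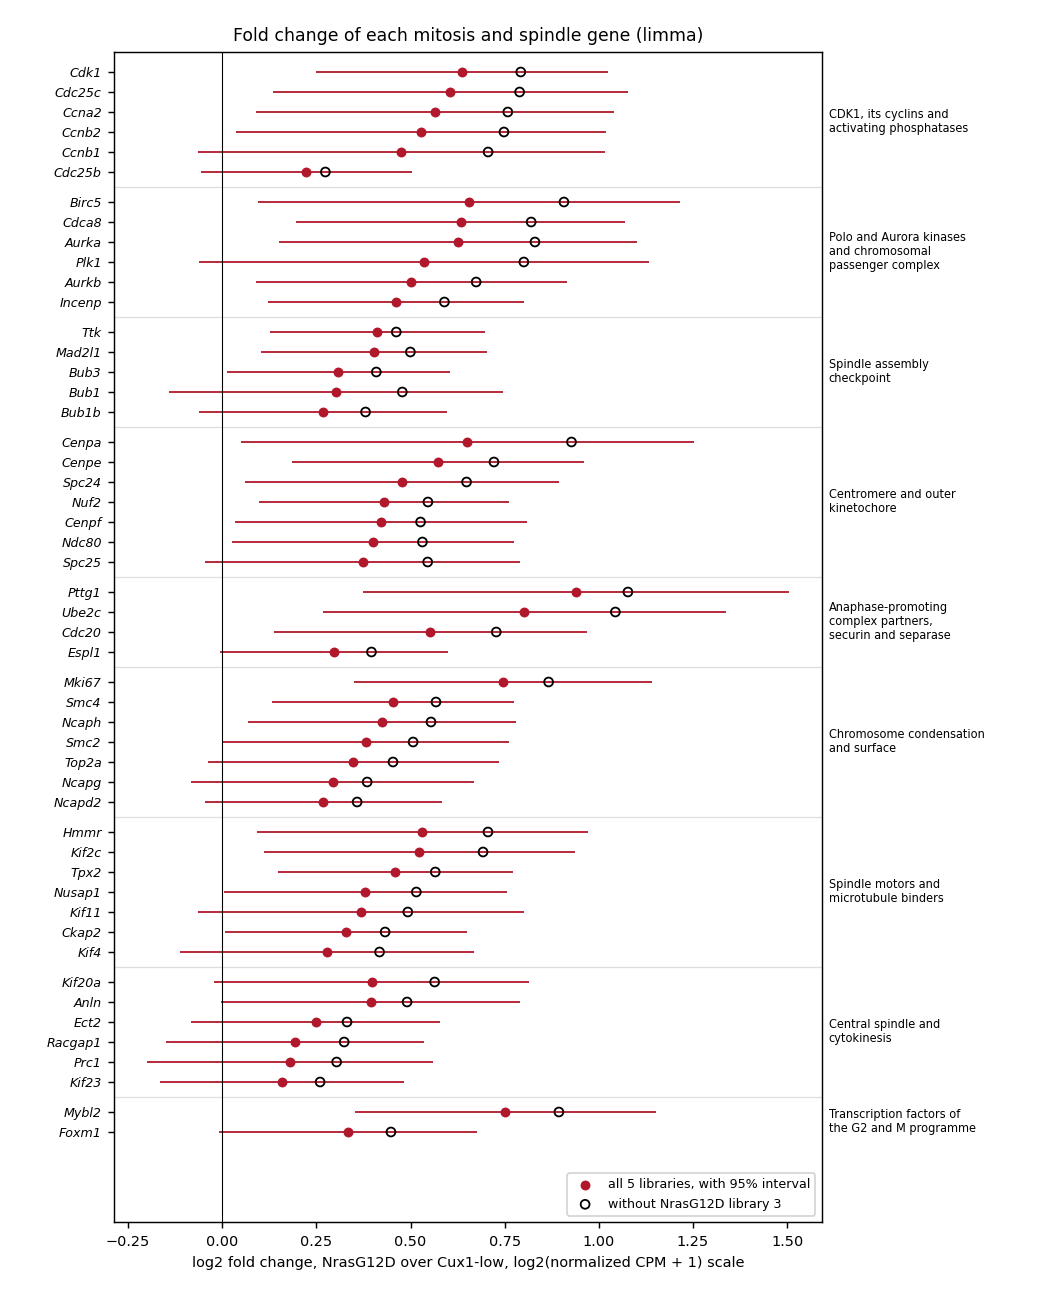
Log2 fold change of each gene, NrasG12D over Cux1-low, on the log2(normalized CPM + 1) scale (x axis), with 95% intervals from limma over all 5 libraries (filled) and the estimate without NrasG12D library 3 (open). All 50 filled points lie above 0, 31 intervals exclude 0, and every open point lies to the right of its filled one.

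Levels can be compared between genes after division by length. On the scale of normalized CPM per kb of annotated exon, cyclin B2 exceeded cyclin B1 by far, with Ccnb2 at a level of 149.8 in the Cux1-low and 221 in the NrasG12D libraries (means), and Ccnb1 at 13.0 and 18.6. Cdk1 was at 34.4 and 54.2. Among the subunits of condensin I, Ncapg had the lowest level per kb (15.7 and 19.5), below Ncaph (31.5 and 42.7) and Smc2 (33.9 and 44.8), and below Smc4 (52.3 and 72.1) and Ncapd2 (54.8 and 66.4). In the NDC80 complex the order was Ndc80 (8.42 and 11.3), Nuf2 (13.6 and 18.5), Spc25 (23.9 and 31.5) and Spc24 (32.7 and 46.3). The order within NDC80 was the same in both groups of libraries. Smc4 and Ncapd2 lay close together in the Cux1-low libraries, where their order differed between library 1 (50.6 and 56.5 per kb) and library 2 (53.9 and 53.1 per kb), and Ncaph and Smc2 lay close together throughout. The exon length is the union over all annotated transcripts, so a gene with long, rarely used exons is placed too low. Ccnb1 and Ccnb2 also have annotated pseudogenes, and the part of shared reads in the difference between these cyclins was not tested.

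**Figure D3:**
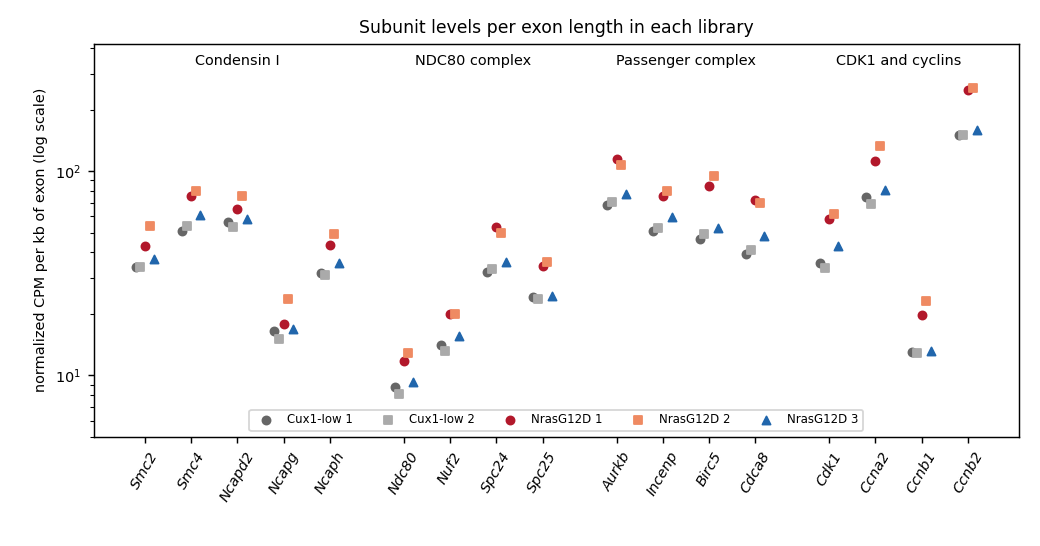
Level of the subunits of condensin I, the NDC80 complex, the chromosomal passenger complex and of CDK1 with its cyclins, in normalized CPM per kb of exon (y axis, log scale), with 1 marker per library. Ncapg lies below the other condensin genes and Ccnb1 below the other cyclins in every library, and NrasG12D libraries 1 and 2 lie at the top for each gene.

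Other genes of the same pathways, 190 measured genes in 8 lists, were read from the same fit. In limma over all genes, 0 rose and 0 fell, where 0.255% of all genes rose and 0.872% fell. Without NrasG12D library 3, 90 rose and 9 fell, where 18.0% of all genes rose and 19.4% fell. Of these lists, replication and S phase genes had the median closest to that of the mitotic genes. Of 34, 33 had a positive sign and 25 (73.5%) rose without library 3, and their median log2 difference came to 0.45. E2f1, a transcription factor of the G1 to S transition, measured 77.9 and 65.5 normalized CPM with the Cux1 knockdown alone, and 118, 116 and 105 with NrasG12D added (adjusted p = 0.0542 in limma), and Rfc4, a subunit of the clamp loader, had a ratio of group means of 1.59. The median gene of that list stood 0.24 above the Cux1-low mean in library 3, on the log2 scale, beside 0.14 for the mitotic genes, a difference that was not tested.

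Further kinetochore and centromere genes had 34 of 36 positive signs (median log2 fold change 0.31). Of these, 22 (61.1%) rose and 1 fell without library 3, where 18.0% of all genes rose and 19.4% fell. Trip13, an ATPase that disassembles the checkpoint complex, was at 72.2 and 73.9 normalized CPM against 108, 106 and 91.5, and the kinetochore gene Pmf1 was at 81.9 and 76.1 against 133, 133 and 98.5. Further spindle, kinesin and centrosome genes had 32 of 41 positive signs (median 0.33), and 20 (48.8%) rose and 2 fell without library 3. The augmin gene Haus8 was at 44.5 and 45.2 against 80.9, 72.4 and 61.2, while the kinase gene Nek6 went the other way, at 79.5 and 75.6 against 37.5, 26.7 and 48.5 (log2 fold change -1.07, adjusted p = 0.0674 in limma). Regulators of CDK1 and of mitotic phosphatases had 17 of 20 positive signs (median 0.23), and 9 (45%) rose without library 3. Among them, Cks1b and Cks2, which encode small CDK-binding proteins, had ratios of group means of 1.55 and 1.62.

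The other 4 lists had medians closer to 0. In the order given below, 23.5%, 29.4%, 16.7% and 21.4% of their genes rose without library 3. The share over all genes was 18.0%, so these counts of rises are not read as a result. Of all genes, 19.4% fell in that fit. Subunits of the anaphase-promoting complex and its regulators had 13 of 17 positive signs (median log2 fold change 0.17), and 4 rose without library 3. The scaffold subunit gene Anapc5 was at 615 and 630.3 normalized CPM against 841, 846 and 706, and Ube2s, which extends ubiquitin chains, was near 4 in the Cux1-low libraries (4.41 and 4.14) against 7.54, 8.79 and 5.83. Further condensin and cohesin genes had 9 of 17 positive signs (median 0.12), and 5 rose without library 3, where Smc3 was at a ratio of 1.24 and the cohesin acetyltransferase gene Esco2 at 1.53. Further cytokinesis genes had 4 of 12 positive signs (median -0.05), and 2 rose and 5 fell without library 3. The septin gene Sept2 was at 184 and 217 against 125, 139 and 116 (log2 fold change -0.66, adjusted p = 0.0567 in limma), and Cit, which encodes citron kinase, at 56.7 and 49.1 against 86.1, 102 and 69.5. Genes of the DREAM and MuvB complexes and of NF-Y had 11 of 14 positive signs (median 0.11), and 3 rose and 1 fell without library 3. Rbbp4 was at 497 and 565 against 736, 744 and 681, and the pocket protein gene Rbl2, a part of DREAM in resting cells, at 178 and 149 against 104, 114 and 129.8 (log2 fold change -0.49, adjusted p = 0.0838 in limma).

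**Figure D4:**
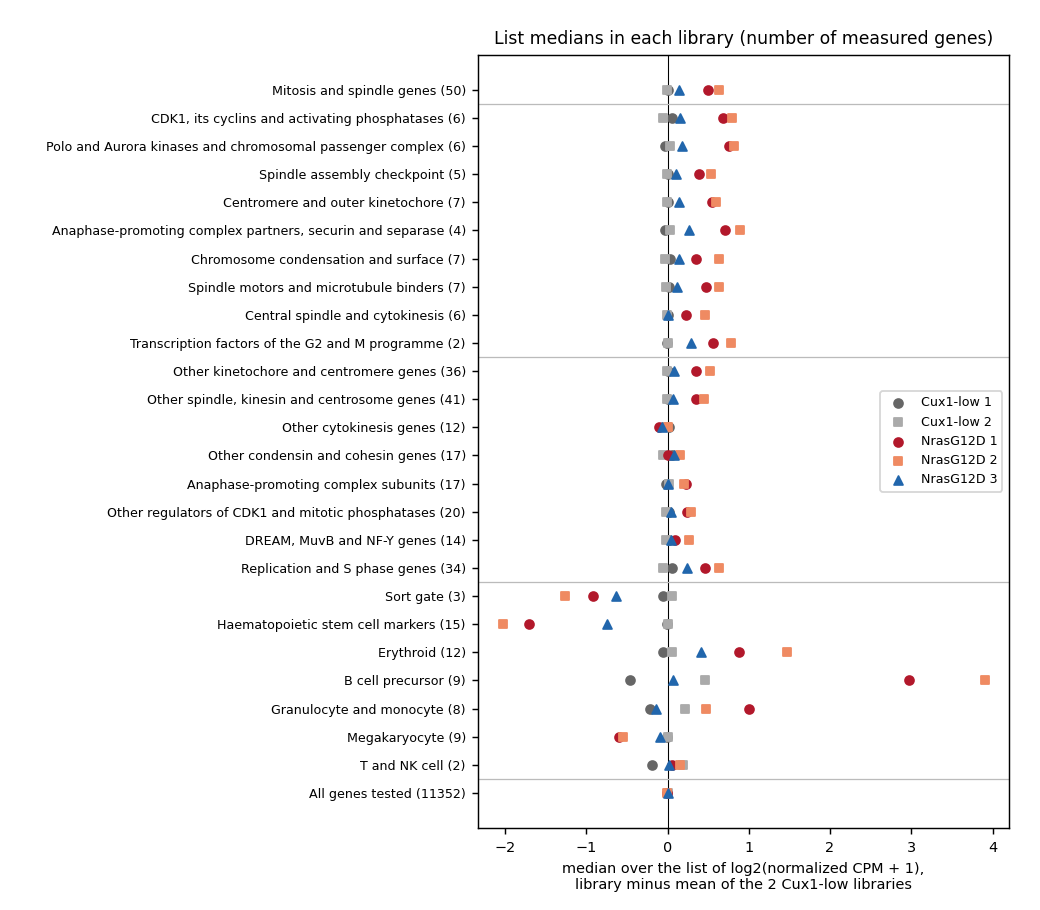
Median over each list of log2(normalized CPM + 1) in each library relative to the Cux1-low mean (x axis, log2 units), for the mitotic genes and their 9 role groups, the 8 further pathway lists, the cell type markers and all genes, with the number of measured genes in parentheses. In the mitotic gene row, library 3 lies at 0.14 between the Cux1-low libraries and NrasG12D libraries 1 and 2 (0.49 and 0.63), and all genes together stay at 0.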

How the data were processed

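The authors' deposited table gives, per the file headers, 1 CPM value for each library. Beside these stand results of the authors' own comparison, per the file headers: log2 values (fold change and mean CPM), the score of a likelihood ratio, and 1 raw and 1 corrected p-value. TopHat, HTSeq, edgeR and the builds mm10 and hg19 appear in the submitters' processing notes, without versions or roles. Whether counting used strand is not stated there. The deposited values are treated as a normalized signal and not as unscaled CPM, since column sums ran from 971746 to 1026780. Every value was a whole multiple of 1 step per library (tolerance 0.001 steps), from which the reads were inferred. Too few values were low enough to check these reads, so no count test was run on them. Every listed gene exceeded 1 in at least 3 libraries, so genes high only in Cux1-low are not covered.

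The test was limma 3.58.1 (R 4.3.3) with a variance trend on log2(value + 1), which understates the change of low genes, 3 against 2 libraries, Benjamini-Hochberg adjusted over 11352 genes, threshold 0.05, without a block. The filter (1 in at least 2 libraries) removed no gene. The script was tested on simulated data. Members, lists and tests were chosen with earlier results of these data known. Values in every library are given for Mki67, Cdk1, Foxm1 and Mybl2 and, per role group, for the 2 members with the smallest and the 1 with the largest p, and in each pathway list the 2 genes with the smallest p are named. The promoters, Ccnb1 and the genes compared per length were chosen after their values were seen. Coordinates and exon lengths are from GENCODE M21 (mm10), promoters from RefSeq. Python 3.11.15, pandas 2.3.3, scipy 1.17.1 and matplotlib 3.10.9 were used.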

Additional observations from a re-analysis of the deposited data

How the results depend on the processing

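The sign of all 50 members was positive under all 14 alternatives, and the median log2 fold change of the members ranged from 0.33 to 0.55. The count of members called was 45 in both alternatives that take NrasG12D library 3 out of the contrast and 0 in the others. Leaving out each library in turn gave 0 to 45 members, 3 to 4243 genes in all and 0 to 99 pathway genes, with the upper ends without NrasG12D library 3. Of all genes, 128 passed with all libraries, 3 when either Cux1-low library or NrasG12D library 1 was left out, and 22 when NrasG12D library 2 was. With a Cux1-low library left out, the lone library of that group is assumed to vary like the NrasG12D libraries, so these counts say little about stability. The fit with the replicate block gave 45 members, 93 pathway genes and 4163 genes. By its construction it compares only libraries 1 and 2 of each group, and it shared 44 of its members with the fit without library 3. The numbers were not shown to pair the libraries. The correlation of deviations from the group means was -0.19 for number 1 and -0.0035 for number 2. With 2 Cux1-low libraries, their deviations mirror each other, so this check can say little about pairing. With columns rescaled to the same total, 213 genes and 1 pathway gene passed (Sept2, lower, limma adjusted p = 0.046), and the medians of the members and of all genes were 0.36 and -0.06. The precision is limited by the number of libraries.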

Other observations

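NrasG12D libraries 1 and 2 were not alike for these genes. Library 2 was the higher one for 42 of 50 members. The share over all genes was not determined, so this count is not read as particular to these genes. Over all 50, whichever library was higher, the median distance was 0.16 on the log2 scale, and the gap was widest for Pttg1 (0.74). The 8 members at which library 1 was higher were Cdc25c, Aurkb, Cdca8, Bub3, Nuf2, Spc24, Ckap2 and Racgap1. The Cux1-low libraries were split evenly, with library 1 the higher for 27 of 50.

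Exons of 12 members overlap exons of a gene on the other strand, among them Cdc20 with Elovl1, Ube2c with Tnnc2, Kif20a with Cdc23 and Nusap1 with Oip5, and exons of Top2a, Ncapd2 and Foxm1 overlap another gene on the same strand. Ccnb1, Ccnb2 and Kif4 have annotated pseudogenes. How reads divide in these cases could not be determined. Whether counting used strand is not stated, and strand would not separate overlaps on the same strand or reads shared with a pseudogene. The levels of these members are uncertain to that extent.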
